A study of Mus musculus with 70 samples.

Results

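The metallothioneins Mt1 and Mt2 and 4 metal transporters, the exporters Slc30a1 and Slc30a10 and the importers Slc39a14 and Slc39a4, were followed across 70 libraries of mouse RNA. They were chosen by symbol, and each of the 6 symbols was found on a row of its own among the 21859 genes of the table. The study switched on 1 of a pair of activated kinases with doxycycline: caMEK1, which activates ERK, or caMKK6, which activates p38. It measured RNA in cultured embryonic fibroblasts (MEFs) and in hepatocytes and colonic epithelial cells sorted from chimeric mice. In those animals mCherry marked the cells with the transgene and GFP the cells around them.

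All material was labelled C57BL/6 and male. caMEK1 MEFs were sampled without doxycycline and after 2, 4 and 7 days in 2 μg/mL doxycycline, with 3 libraries in each of the 4 groups. caMKK6 MEFs were sampled in the same 4 groups of 3, and no MEFs without a kinase were analysed here. The untreated MEFs of both genotypes were taken at day 2 only, so days 4 and 7 have no untreated cells of their own age. In mice, the groups were mCherry and GFP cells from the same doxycycline-treated animals and GFP cells from untreated ones. For liver these numbered 3, 3 and 3 libraries for caMEK1, 2, 2 and 3 for caMKK6, and 2, 2 and 3 for Control. For colon they numbered 2, 2 and 3 for caMEK1, 3, 3 and 3 for caMKK6, and 2, 2 and 3 for Control. Doxycycline in the drinking water was 0.2 mg/mL in caMEK1 animals, and the other genotypes received 2 mg/mL, so kinase and dose cannot be told apart in comparisons of caMEK1 animals with the others. Treated animals carry the time label day 7 and untreated ones carry none, and the age of the animals is not given in the sources used here.

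Transgenes and reporters were set against the labels. Frog MEK1 stood at 460 to 1170 FPKM in treated and 1.94 to 4.04 FPKM in untreated caMEK1 MEFs, and human MKK6 at 130 to 1210 FPKM in treated and 0.41 to 3.17 FPKM in untreated caMKK6 MEFs. 5 of the caMKK6 MEF libraries also listed frog MEK1, at up to 16.5 FPKM. In caMEK1 mice frog MEK1 had 14.1, 5.55 and 8.88 FPKM in mCherry and at most 0.24 FPKM in GFP hepatocytes, and 288 and 235 FPKM in mCherry and 12.3 and 28.7 FPKM in GFP colon cells. In caMKK6 mice human MKK6 had 216 and 1210 FPKM in mCherry and 1.51 and 30.9 FPKM in GFP hepatocytes. In colon it had 2650, 1610 and 1210 FPKM in mCherry and 116, 8.50 and 10.6 FPKM in GFP cells. Control mCherry cells held 0.0 FPKM of both. The GFP hepatocytes of Control mice on doxycycline listed mCherry at 678 and 749.6 FPKM, against their label, and Control mCherry hepatocytes at 4730 and 3990 FPKM. The caMEK1 mCherry hepatocytes listed mCherry at 12.2, 4.24 and 6.59 FPKM, far below both, and caMEK1 GFP hepatocytes of the same animals at 1.33, 0 and 0.33 FPKM. EGFP stood at 1.28, 6.81 and 5.82 FPKM in caMEK1 mCherry hepatocytes, and at 12.6, 35.1 and 56.4 FPKM in the GFP hepatocytes of those animals. In Control livers on doxycycline EGFP had 12.9 and 9.31 FPKM in mCherry cells, the first of them near the lowest caMEK1 GFP library, and 70.2 and 72.1 FPKM in GFP cells.

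FPKM scales fragments by exon length and library size, so levels can be compared between genes. Reads in genes ranged between 10499019 and 17150052 per MEF library, 9096993 and 14297505 per liver library, and 6358587 and 16647561 per colon library. Labels and markers matched: 7 hepatocyte markers together reached 25430 to 102500 FPKM in liver and at most 82.9 FPKM in any colon or MEF library. The sum of 9 colon epithelial markers lay between 4511 and 11150 FPKM in colon and reached at most 201 FPKM elsewhere. The sum of 8 fibroblast markers lay between 229 and 1720 FPKM in MEFs and reached at most 33.9 FPKM in the sorted cells. In such bulk libraries, fewer cells of a type and less RNA per cell cannot be told apart. Where the labels do not state separate cultures or animals, p-values measure the spread between these libraries, which may be technical.

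Metallothioneins are small cysteine-rich proteins that bind zinc and copper and buffer free zinc. Their genes are switched on by zinc through the transcription factor MTF1, which binds metal response elements, and also by glucocorticoids, oxidants and inflammatory cytokines. Slc30a transporters move zinc or manganese out of the cytosol and Slc39a transporters bring metal in. In liver the acute phase raises metallothioneins and Slc39a14, and in the gut Slc39a4 takes up dietary zinc.

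Mt1 lies at chr8:94179082-94180327 and Mt2 at chr8:94172664-94173568, both on the plus strand of GRCm38. Slc30a1 lies at chr1:191906767-191913247 and Slc30a10 at chr1:185454848-185468762, also on the plus strand. Slc39a14 at chr14:70303469-70351425 and Slc39a4 at chr15:76612383-76617384 lie on the minus strand. Promoter windows of 300 bases, 250 before and 50 after a listed start of transcription, were taken from RefSeq on GRCm38.p6 and matched 4 of the 6 genes. Mt1 and Mt2 are shown because they moved together, and Slc30a1 because it is a known MTF1 target. Capitals mark the core of the metal response element, TGCACNC or TGCGCNC on either strand.
Mt1, chr8:94178839-94179138, plus strand: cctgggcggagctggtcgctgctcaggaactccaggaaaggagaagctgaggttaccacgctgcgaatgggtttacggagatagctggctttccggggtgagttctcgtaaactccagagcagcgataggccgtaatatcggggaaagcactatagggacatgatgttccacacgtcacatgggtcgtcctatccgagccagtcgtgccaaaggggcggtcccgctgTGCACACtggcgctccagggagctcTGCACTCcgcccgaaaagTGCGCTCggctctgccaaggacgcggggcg
Mt2, chr8:94172368-94172667, plus strand: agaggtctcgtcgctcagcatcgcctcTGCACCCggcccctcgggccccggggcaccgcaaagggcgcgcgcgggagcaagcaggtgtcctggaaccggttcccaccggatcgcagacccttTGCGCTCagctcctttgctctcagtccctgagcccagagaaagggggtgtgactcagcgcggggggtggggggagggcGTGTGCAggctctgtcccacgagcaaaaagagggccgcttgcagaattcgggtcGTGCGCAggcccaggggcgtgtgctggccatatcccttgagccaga
Slc30a1, chr1:191906531-191906830, plus strand: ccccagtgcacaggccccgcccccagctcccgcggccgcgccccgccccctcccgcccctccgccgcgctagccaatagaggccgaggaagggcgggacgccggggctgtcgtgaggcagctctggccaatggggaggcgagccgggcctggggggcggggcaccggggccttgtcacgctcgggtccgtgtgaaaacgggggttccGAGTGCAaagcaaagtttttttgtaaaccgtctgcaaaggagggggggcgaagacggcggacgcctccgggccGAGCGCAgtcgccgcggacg
The Mt1 window held 3 matches, the Mt2 window 4 and the Slc30a1 window 2. The Slc30a10 window held 3 matches, of which a pair overlapped on opposite strands. Of 32851 promoter windows of this length, 25.7% held at least 1 match, 7.11% at least 2, 1.97% at least 3 and 0.517% at least 4. A match describes the letters and is no measured binding site. Matches outside these windows, or near other starts of a gene, were not looked for, so the counts do not cover a whole promoter.

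In MEFs both metallothioneins rose on doxycycline in both kinase genotypes at every time measured. Without MEFs that lack a kinase, the kinase and doxycycline itself cannot be told apart in any MEF comparison of treated with untreated cells. Without doxycycline, at day 2, day 4 and day 7, Mt1 had 22.1, 22.9 and 25.5 FPKM, then 91.0, 108 and 112 FPKM, then 168, 208 and 182 FPKM, then 186, 196 and 185 FPKM in the caMEK1 libraries. Mt2, in the same order of times, had 29.7, 25.5 and 20.9 FPKM, then 140, 172 and 154 FPKM, then 247, 318 and 263 FPKM, then 289, 312 and 264 FPKM. No treated caMEK1 library overlapped an untreated one. In caMKK6 MEFs Mt1 had 37.1, 35.2 and 38.6 FPKM without doxycycline, 83.4, 68.5 and 73.3 FPKM at day 2, 99.3, 128 and 111 FPKM at day 4, and 107, 133 and 93.7 FPKM at day 7. Mt2 in caMKK6 MEFs had 28.2, 30.1 and 31.1 FPKM without doxycycline, 88.5, 66.0 and 65.7 FPKM at day 2, 122, 140 and 117 FPKM at day 4, and 130, 167 and 117 FPKM at day 7. Here too treated and untreated libraries were apart. Most of the rise was present by day 4, and the means of day 7 and day 4 differed little: 188.9 ± 6.02 and 186.1 ± 20.5 FPKM for Mt1 in caMEK1 MEFs (SD, n = 3 each).

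**Figure D1:**
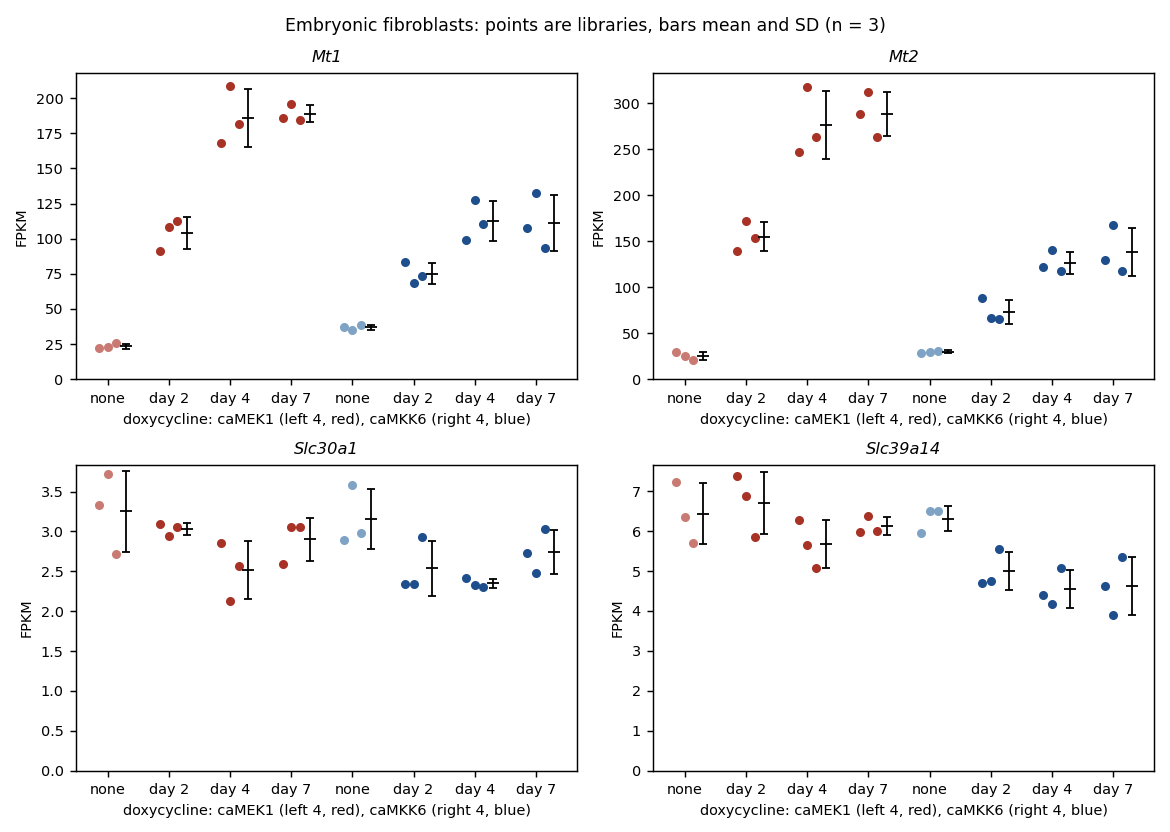
Mt1, Mt2, Slc30a1 and Slc39a14 in MEFs, in FPKM on linear axes, without doxycycline and at days 2, 4 and 7, for caMEK1 (red, left) and caMKK6 (blue, right). Points are libraries and black bars mean and SD (n = 3); all treated libraries lie above the untreated ones for Mt1 and Mt2, while Slc30a1 and Slc39a14 stay between 2.12 and 7.38 FPKM.

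On the log2(FPKM + 1) scale, with limma and Benjamini-Hochberg adjustment over 11347 genes, Mt1 rose under caMEK1 by 2.09 ± 0.12 at day 2 and 2.93 ± 0.12 at day 4 (SE, adjusted p = 2.5e-11 and 7.6e-14). Mt2 rose by 2.57 ± 0.14 and 3.40 ± 0.14 at those days (adjusted p = 2.4e-11 and 1.7e-13). Under caMKK6 the log2 changes of Mt1 were 1.00, 1.58 and 1.55 at days 2, 4 and 7 (SE 0.12, limma adjusted p = 4.3e-06, 1.5e-08 and 1.8e-08). Those of Mt2 were 1.26, 2.04 and 2.16 (SE 0.14, limma adjusted p = 3.2e-06, 6.5e-09 and 5.6e-09). These were the 2 members called higher of the 4 that could be tested, where 39.3%, 57.8% and 62.1% of all genes were called in either direction under caMEK1 at days 2, 4 and 7, and 39.2%, 44.8% and 40.8% under caMKK6. The change was larger under caMEK1 at each time: the log2 difference between the changes was 1.09, 1.35 and 1.40 for Mt1 (SE 0.17, limma adjusted p = 5.8e-05, 2.4e-06 and 1.6e-06). For Mt2 it was 1.31, 1.36 and 1.31 (SE 0.20, limma adjusted p = 7.1e-05, 2.8e-05 and 4.3e-05). In these comparisons of changes 23.5%, 35.2% and 37.8% of genes were called. The untreated cells differed in Mt1 too, with 23.5 ± 1.77 FPKM in caMEK1 and 36.9 ± 1.69 FPKM in caMKK6 MEFs (SD, n = 3 each, log2 difference -0.63, limma adjusted p = 0.0033, 6.48% of genes called, or 735, and 336 without untreated caMEK1 replicate 1). Without the caMKK6 libraries that held over 5 FPKM of frog MEK1, that baseline difference was -0.64 with adjusted p = 0.061. The summed fibroblast markers moved too, with 229 to 445 FPKM in treated and 1026 to 1338 FPKM in untreated caMEK1 MEFs. The sum of 8 macrophage markers was 99.9 to 258 FPKM at day 7 in caMEK1 MEFs, against 26.2 to 47.0 FPKM without doxycycline, and 82.6 to 702 FPKM at day 7 in caMKK6 MEFs, against 31.7 to 220 FPKM without it. The sum of 5 cholangiocyte markers was 5450 to 8263 FPKM in treated and 393 to 500.3 FPKM in untreated caMEK1 MEFs. The part of these markers in the rise of the metallothioneins was not tested.

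The transporters moved little in MEFs. Slc30a1, the zinc exporter of the cell surface, averaged 2.51 ± 0.37 FPKM in caMEK1 MEFs at day 4 and 3.25 ± 0.51 FPKM without doxycycline (SD, n = 3 each). It fell by 0.27 on the log2 scale (limma adjusted p = 0.022), with overlapping libraries. That call was lost without untreated replicate 1 or 2 or without day 4 replicate 2, with adjusted p between 0.061 and 0.13. In caMKK6 MEFs at day 4 Slc30a1 had 2.42, 2.32 and 2.30 FPKM, against 2.90, 3.59 and 2.98 FPKM without doxycycline. It fell by 0.31 (limma adjusted p = 0.015), and without untreated replicate 2 the change was -0.23 with adjusted p = 0.084. Common-median and quantile scaling ended that call too (-0.23 and -0.19, adjusted p = 0.057 and 0.14). Slc30a1 was not called at day 2 or day 7 under either kinase, the lowest limma adjusted p being 0.065 for caMKK6 at day 2. Without day 2 replicate 3 that value became -0.31 with adjusted p = 0.025.

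Slc39a14, an importer of zinc, manganese and iron, fell in caMKK6 MEFs at each time, and no treated library overlapped the untreated ones. It had 5.95, 6.49 and 6.49 FPKM without doxycycline, 4.71, 4.75 and 5.56 FPKM at day 2, 4.39, 4.17 and 5.08 FPKM at day 4, and 4.62, 3.90 and 5.34 FPKM at day 7. The log2 changes were -0.29, -0.40 and -0.39 (SE 0.10, limma adjusted p = 0.032, 0.0035 and 0.0051). The day 2 call was lost with common-median or quantile scaling (-0.21 and -0.18, adjusted p = 0.079 and 0.12) and without untreated replicate 2 or 3 or day 2 replicate 1 or 2 (adjusted p between 0.08 and 0.11). All 3 calls were lost when the 5 caMKK6 libraries with frog MEK1 were left out, which left 1 untreated library and values of -0.29, -0.28 and -0.32 (adjusted p = 0.33, 0.24 and 0.15). That of Slc30a1 at day 4 was then -0.21 (adjusted p = 0.32). Under caMEK1 the changes were 0.05, -0.15 and -0.06, none called, and the difference between the kinases was not called either (adjusted p between 0.078 and 0.2). With the replicate number as a block within genotype that difference was called at each time, with adjusted p = 0.013, 0.049 and 0.01. It was called without a block too when caMEK1 day 2 replicate 3 was left out (0.42 at day 2), or untreated caMEK1 replicate 1 or caMKK6 day 7 replicate 3 (0.41 and 0.42 at day 7), with adjusted p between 0.028 and 0.049. Slc30a10 had at most 1 read in any MEF library, and Slc39a4 at most 0.15 FPKM. Both were left untested there.

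Other genes of metal handling were read beside them from lists, whose counts stand against 62.1% of all genes called under caMEK1 at day 7 and 40.8% under caMKK6. Mt3 and Mt4, further metallothioneins, and Mtf1 were all called higher in caMEK1 MEFs at days 2, 4 and 7, 3 of 3 genes, with a median log2 change of 2.21, 2.46 and 1.75 against -0.01, -0.01 and 0.03 over all genes. At day 7 Mt3 averaged 12.9 ± 3.55 FPKM in treated and 0.09 ± 0.08 FPKM in untreated caMEK1 MEFs, and Mt4 2.58 ± 0.61 and 0.06 ± 0.10 FPKM (SD, n = 3 each). Mtf1, the metal sensor, averaged 4.04 ± 0.45 and 3.41 ± 0.12 FPKM. In caMKK6 MEFs 1 of these 3 was called at day 2 and none at days 4 and 7. Of 5 other zinc exporters tested, Slc30a4, which loads vesicles, was called higher under caMEK1 at every time, with 39.9 ± 6.55 FPKM at day 7 and 16.97 ± 1.30 FPKM without doxycycline. Of 9 other zinc importers tested, 1 was higher and 2 were lower under caMEK1 at day 7, and 1 and 1 under caMKK6. Slc39a13 was lower in all 6 comparisons, by 0.32 to 0.80 on the log2 scale. Targets of the oxidant-responsive factor NRF2 were called higher in 7 of 14 and lower in 4 of 14 under caMEK1 at day 7, and higher in 7 and lower in 0 under caMKK6. Among them Srxn1, which repairs oxidised peroxiredoxins, averaged 446 ± 39.4 FPKM in treated and 39.9 ± 2.92 FPKM in untreated caMEK1 MEFs. Of 10 copper genes, 3 rose and 0 fell under caMEK1 at day 7 and 4 rose and 0 fell under caMKK6. The copper exporter Atp7a rose in both, to 6.02 ± 1.11 FPKM against 2.92 ± 0.28 FPKM in caMEK1 MEFs and to 4.76 ± 0.74 FPKM against 3.14 ± 0.09 FPKM in caMKK6 MEFs. Of 5 genes of manganese and divalent metal transport, 2 rose and 1 fell under caMEK1 at day 7 and 1 rose and 1 fell under caMKK6. The iron exporter Slc40a1 rose in both, and Slc11a2, an importer of divalent metals, fell in both.

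In liver Mt1 and Mt2 lay higher in every kinase library on doxycycline than in every Control library of the same colour on doxycycline. Most of those differences from Control were not called. In caMKK6 mice both genes were lower in mCherry than in GFP cells in 2 of 2 animals. Mt1 had 493, 554 and 327 FPKM in caMEK1 mCherry hepatocytes and 1206 and 146 FPKM in caMKK6 mCherry hepatocytes, against 64.1 and 76.1 FPKM in Control mCherry hepatocytes. Mt2 had 947, 1230 and 508 FPKM in caMEK1 and 1842 and 244 FPKM in caMKK6 mCherry cells, against 77.1 and 74.0 FPKM in Control mCherry cells. Every kinase library lay above every Control library for both genes. The caMKK6 libraries differed from each other by more than the lower of them differed from Control. In the tests Mt2 was called higher in caMEK1 mCherry cells, with a log2 change of 3.46 ± 1.18 (SE, limma adjusted p = 0.038). Mt1 in caMEK1 was not called (2.66 ± 1.06, adjusted p = 0.071), nor were Mt1 and Mt2 in caMKK6 (2.57 ± 1.16 and 3.13 ± 1.30, adjusted p = 0.086 and 0.064). The Mt2 call was lost without either Control library or without caMEK1 replicate 1 or 2, with log2 changes between 3.18 and 3.49 and adjusted p between 0.083 and 0.16. It was lost without the low-value filter as well (adjusted p = 0.067). Without caMKK6 replicate 2, which leaves 1 library, the changes were 4.09 for Mt1 and 4.59 for Mt2 with adjusted p = 0.022 and 0.026. That replicate held more of the human MKK6 transgene, 1210 FPKM against 216 FPKM in replicate 1.

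**Figure D2:**
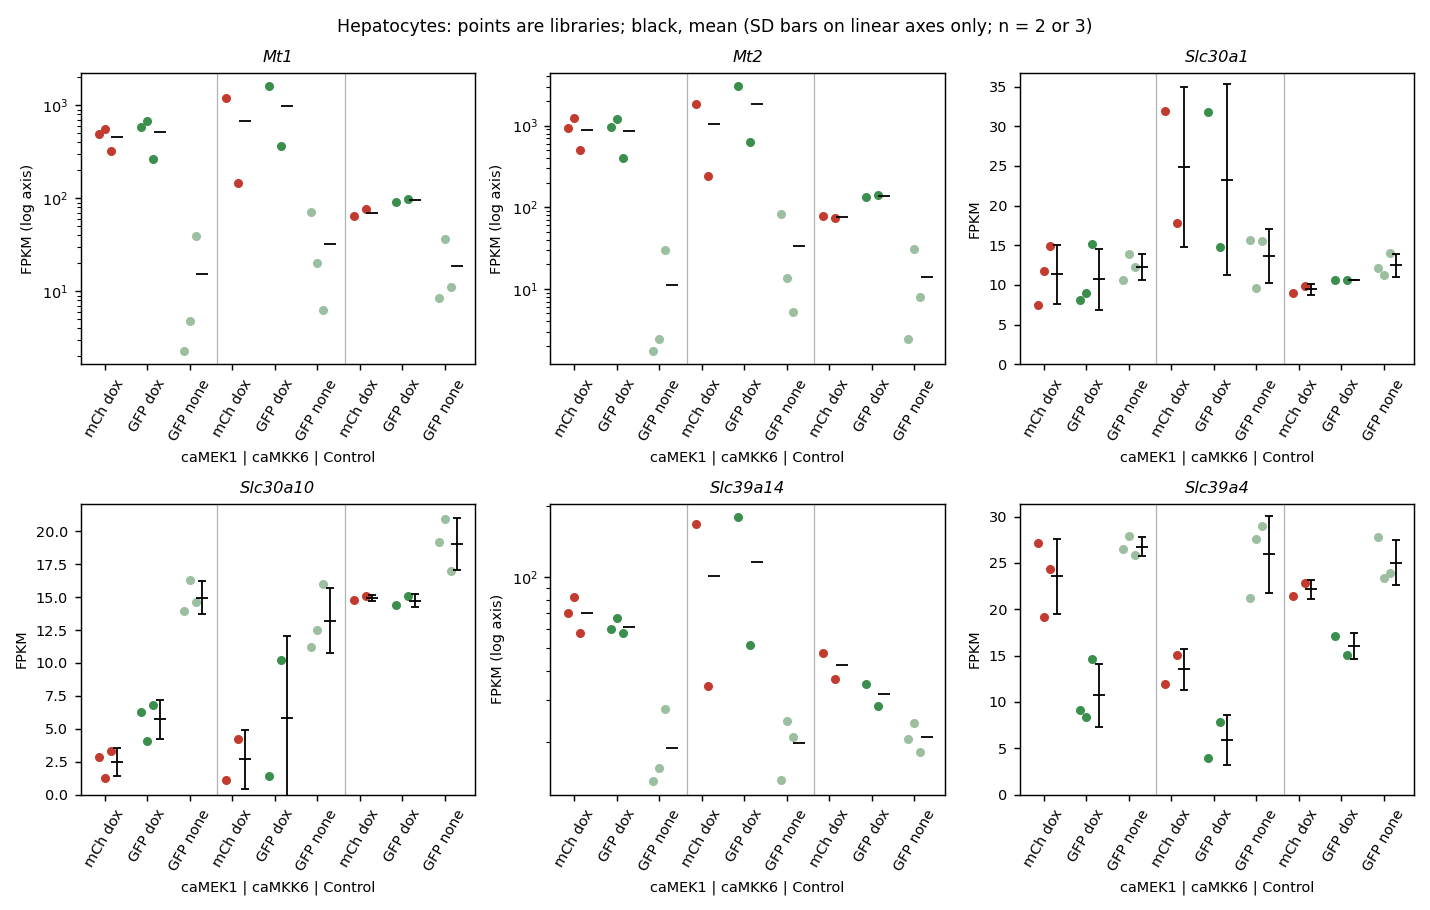
The 6 genes in hepatocytes, in FPKM, for caMEK1, caMKK6 and Control mice; the axes of Mt1, Mt2 and Slc39a14 are logarithmic and the others linear from 0. Points are libraries of mCherry and GFP cells on doxycycline and GFP cells without it, with the mean in black and SD bars on linear axes. Mt1 and Mt2 lie between 146 and 3019 FPKM in all kinase libraries on doxycycline, and at most 83.1 FPKM in untreated ones. Control libraries on doxycycline lie between 64.1 and 140.8 FPKM.

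The cells sorted as GFP showed the same 2 genes raised over untreated animals. Those of caMKK6 mice on doxycycline listed some mCherry, at 1.16 and 24.7 FPKM, against 170 and 902 FPKM in mCherry cells of the same animals. Mt1 had 582, 687 and 266 FPKM in caMEK1 GFP cells on doxycycline, against 2.29, 4.82 and 39.1 FPKM in caMEK1 GFP cells without it. Mt2 had 972, 1201 and 400 FPKM on doxycycline, against 1.73, 2.40 and 29.7 FPKM without it. The groups did not overlap, and the untreated livers themselves were far apart. In caMKK6 GFP cells Mt1 had 1598 and 367 FPKM on doxycycline, against 70.8, 20.3 and 6.35 FPKM without it, and Mt2 3019 and 633 FPKM, against 83.1, 13.7 and 5.21 FPKM. The log2 changes under caMEK1 were 5.70 ± 0.94 for Mt1 and 6.88 ± 1.06 for Mt2 (SE, limma adjusted p = 0.00027 and 0.00015). Under caMKK6 they were 5.10 ± 1.06 and 6.13 ± 1.18 (SE, limma adjusted p = 0.0045 and 0.0031). Without caMKK6 GFP replicate 1 they were 4.04 and 5.00 with adjusted p = 0.13 and 0.097. In Control GFP cells Mt1 had 91.9 and 98.4 FPKM on doxycycline, against 8.60, 36.8 and 11.3 FPKM without it, and Mt2 134 and 141 FPKM, against 2.43, 31.1 and 7.89 FPKM. Those groups did not overlap either, yet the changes of 2.55 and 3.80 had limma adjusted p = 1 and 0.55, in a comparison where 9 genes in all (0.0868%) were called. Set against Control GFP cells on doxycycline instead of untreated GFP cells, the changes of Mt1 and Mt2 were 2.31 and 2.49 under caMEK1 and 3.00 and 3.32 under caMKK6. None of these was called (limma adjusted p between 0.083 and 0.11). Against untreated GFP cells instead of Control mCherry cells, the mCherry changes of Mt1 were 5.61 and 4.24 under caMEK1 and caMKK6, both called (limma adjusted p = 0.00017 and 0.0059), and that of Mt2 under caMKK6 was 5.09 (adjusted p = 0.0038).

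Slc30a10, the manganese exporter, was lower in liver under both kinases. It had 2.85, 1.29 and 3.32 FPKM in caMEK1 and 1.10 and 4.25 FPKM in caMKK6 mCherry hepatocytes, against 14.8 and 15.1 FPKM in Control mCherry hepatocytes. The groups did not overlap. Slc30a10 fell by 2.24 ± 0.46 and by 2.26 ± 0.50 on the log2 scale (SE, limma adjusted p = 0.0016 and 0.0029). Without caMKK6 replicate 1 the change was -1.60 with adjusted p = 0.054. In GFP cells it had 6.26, 4.06 and 6.82 FPKM in caMEK1 mice on doxycycline, against 13.9, 16.3 and 14.7 FPKM in untreated ones. In caMKK6 GFP cells it had 1.41 and 10.3 FPKM on doxycycline, against 11.2, 12.5 and 16.0 FPKM without it. Slc30a10 fell by 1.27 ± 0.41 and by 1.44 ± 0.46 there (SE, limma adjusted p = 0.022 and 0.037). Under caMEK1 the call was lost without untreated replicate 2 or treated replicate 2 (-1.21 and -1.08, adjusted p = 0.064 and 0.089). Under caMKK6 the change without treated replicate 1 was -0.32 (adjusted p = 0.72), and without any 1 untreated library adjusted p lay between 0.066 and 0.082. Common-median and quantile scaling ended both GFP calls, with values of -1.02 and -0.84 under caMEK1 and -1.36 and -1.27 under caMKK6 (adjusted p between 0.05 and 0.15). The Control values were 14.4 and 15.1 FPKM on doxycycline and 19.2, 20.96 and 16.98 FPKM without it, a log2 change of -0.34 that was not called.

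Slc39a14, the importer known as an acute phase gene of liver, rose in GFP hepatocytes of both kinases. It had 60.1, 67.0 and 57.6 FPKM in caMEK1 GFP cells on doxycycline, against 13.6, 15.4 and 27.5 FPKM without it. In caMKK6 GFP cells it had 180 and 51.4 FPKM on doxycycline, against 13.8, 24.5 and 21.04 FPKM without it. The log2 changes were 1.72 ± 0.46 and 2.27 ± 0.52 (SE, limma adjusted p = 0.0077 and 0.0074), and without caMKK6 replicate 1 the caMKK6 value was 1.37 with adjusted p = 0.23. In mCherry cells Slc39a14 had 70.3, 82.2 and 58.0 FPKM in caMEK1 and 167 and 34.4 FPKM in caMKK6 mice, against 47.5 and 36.9 FPKM in Control mice. Only the caMEK1 libraries were apart from Control, and neither change was called (0.72 and 0.85, limma adjusted p = 0.34 and 0.25). Against untreated GFP cells both were (1.90 and 1.93, adjusted p = 0.0036 and 0.0088). Without caMKK6 mCherry replicate 2, which leaves 1 library, the change was 1.97 with adjusted p = 0.0091. Control GFP cells had 35.1 and 28.5 FPKM on doxycycline, against 20.5, 23.9 and 18.1 FPKM without it, groups that were apart as well, with a log2 change of 0.59 that was not called (adjusted p = 1). Set against those Control GFP cells on doxycycline, the changes in GFP cells were 0.94 and 1.58, not called (adjusted p = 0.16 and 0.065).

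Slc39a4, a zinc importer, differed between the colours. It had 27.1, 19.2 and 24.4 FPKM in caMEK1 mCherry hepatocytes, against 9.14, 8.36 and 14.6 FPKM in GFP hepatocytes of the same mice. In caMKK6 mice it had 11.9 and 15.1 FPKM in mCherry cells, against 3.97 and 7.82 FPKM in GFP cells. Every animal had the higher value in mCherry cells, 3 of 3 and 2 of 2, and the groups did not overlap. The log2 differences were 1.09 ± 0.22 and 1.13 ± 0.27 (SE, limma adjusted p = 0.0061 and 0.023), where 4.71% and 4.28% of all genes were called in these comparisons. Without caMKK6 mCherry replicate 2 or GFP replicate 1 the caMKK6 value was 0.97 or 0.71 with adjusted p = 0.12 and 0.09. Common-median and quantile scaling also ended the caMKK6 call (0.85 and 0.90, adjusted p = 0.14 and 0.12), while the caMEK1 call was kept (0.99 and 1.09, adjusted p = 0.013 and 0.007). Control livers had 21.4 and 22.9 FPKM in mCherry cells, against 17.1 and 15.1 FPKM in GFP cells, a difference of 0.44 that was not called (adjusted p = 0.37), in a comparison where 0.106% of genes were. The kinase differences were not shown to exceed the Control one (0.65 and 0.69 larger, limma adjusted p = 0.25 and 0.23, with 5.36% and 9.75% of genes called). Those shares rest on 556 and 1011 genes, which became 49 and 49 without Control mCherry replicate 2, and up to 1143 without caMEK1 mCherry replicate 3 and 2102 without caMKK6 GFP replicate 1. Against untreated GFP cells, with 26.5, 27.9 and 25.8 FPKM in caMEK1 and 21.2, 27.5 and 29.0 FPKM in caMKK6 mice, Slc39a4 fell in the GFP cells on doxycycline by 1.28 ± 0.22 and by 2.01 ± 0.24 (SE, limma adjusted p = 0.00031 and 5.1e-05). The Control GFP groups did not overlap either, with 17.1 and 15.1 FPKM on doxycycline, against 27.8, 23.3 and 23.9 FPKM without it, a change of -0.61 that was not called (adjusted p = 0.99). Against Control GFP cells on doxycycline the caMEK1 value was -0.58, not called (adjusted p = 0.067). Against Control mCherry cells the mCherry changes were 0.07 and -0.68, not called (adjusted p = 0.86 and 0.051), while against untreated GFP cells the caMKK6 value was -0.89 (adjusted p = 0.0098).

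Slc30a1 in liver mCherry cells rose under caMKK6 and differed between the kinases. It had 32.0 and 17.8 FPKM in caMKK6 mCherry hepatocytes, against 8.98 and 9.92 FPKM in Control ones, and 7.42, 11.8 and 14.9 FPKM in caMEK1 ones. It rose under caMKK6 by 1.25 ± 0.36 on the log2 scale (SE, limma adjusted p = 0.014) and was not called under caMEK1 (0.20 ± 0.33, adjusted p = 0.72). Between the kinases, caMEK1 over caMKK6 mCherry cells, the log2 difference was -1.06 ± 0.33 (SE, limma adjusted p = 0.023). The same comparison gave 0.75 ± 0.24 for Slc39a4 (adjusted p = 0.025), with 31.7% of genes called. The caMKK6 call was lost without Control replicate 1 or 2 or caMKK6 replicate 1 (1.19, 1.32 and 0.85, adjusted p between 0.06 and 0.16). Without caMKK6 replicate 1 or caMEK1 replicate 1 the difference between kinases was -0.65 or -0.80, not called (adjusted p = 0.23 and 0.11), and with common-median or quantile scaling it was -0.65 or -0.69 (adjusted p = 0.21 and 0.25). That of Slc39a4 was lost without caMEK1 replicate 1 or 3 or caMKK6 replicate 1 (0.65, 0.72 and 0.59, adjusted p between 0.059 and 0.16). The median of all genes moved by 0.25 in caMKK6 mCherry cells against Control, and with libraries set to a common median the change of Slc30a1 was 0.87 with adjusted p = 0.081. It was 0.79 against untreated GFP cells (adjusted p = 0.07). In GFP cells Slc30a1 was not called under either kinase (-0.22 and 0.67, limma adjusted p = 0.59 and 0.16), and without caMKK6 GFP replicate 2 the caMKK6 value was 1.19 with adjusted p = 0.019.

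Counted over the 6 genes, 1 was higher and 1 lower in caMEK1 mCherry hepatocytes, with 27.1% of all genes called, and likewise 1 and 1 in caMKK6 ones, with 38.2% called. In GFP cells 3 were higher and 2 lower under caMEK1 with 38.5% of genes called, and 3 and 2 under caMKK6 with 19% called. That 19% is 1974 genes, which became 206 without treated caMKK6 GFP replicate 1 and 3950 without replicate 2. Between mCherry and GFP cells of the same animals neither metallothionein was called in any genotype. The log2 difference of Mt1 was -0.09 under caMEK1, with a 95% interval of -2.07 to 1.90 in a fit that leaves out the pairing, while the ratio of mCherry to GFP cells within the 3 animals was 0.85, 0.81 and 1.23. With the animal as a block Mt1 was not called either (adjusted p = 0.8). In the blocked fit the mCherry cells were called lower for Slc30a10 under caMEK1 (-0.97, adjusted p = 0.0097) and for Mt2 under caMKK6 (-1.04, adjusted p = 0.016). In that fit the caMEK1 gap also differed from the Control gap for Mt2 (0.97, adjusted p = 0.039) and for Slc30a10 (-0.99, adjusted p = 0.046). GFP cells of caMEK1 against caMKK6 mice gave no call among the members, with 3.6% of genes called and the lowest limma adjusted p at 0.073 for Slc39a4, which common-median and quantile scaling called (1.02 and 1.14, adjusted p = 0.041 and 0.026). Those 373 genes became 85 without caMKK6 GFP replicate 1 and 2216 without replicate 2. Without caMKK6 GFP replicate 2 that comparison called Slc30a1, Slc30a10 and Slc39a4 (-1.53, 1.46 and 1.20, adjusted p between 0.0051 and 0.015), and without caMEK1 GFP replicate 3 Slc30a1 (-1.26, adjusted p = 0.034). Without caMKK6 GFP replicate 1 the mCherry to GFP difference of Slc30a10 was -1.76 (adjusted p = 0.014), and its excess over Control -1.78 (adjusted p = 0.031).

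The list counts in GFP hepatocytes stand against 38.5% of all genes called under caMEK1 and 19% under caMKK6, and those in mCherry cells against 27.1% and 38.2%. Of the 18 genes of the IL-6 and acute phase list, 16 were higher and 0 lower in caMEK1 GFP hepatocytes on doxycycline against none, with a median log2 change of 1.83 against -0.25 over all genes. In caMKK6 GFP cells 15 were higher and 0 lower, with medians of 2.13 and -0.07. Lcn2, which binds bacterial siderophores, averaged 732 ± 508 FPKM in caMEK1 GFP cells on doxycycline and 1.54 ± 0.49 FPKM without it (SD, n = 3 each). Saa2, a serum amyloid, averaged 380 ± 346 and 4.50 ± 1.71 FPKM. In Control GFP cells 0 of the 18 were called, with a median of 0.81, although Lcn2 had 11.9 and 11.2 FPKM on doxycycline and 0.33, 1.04 and 1.04 FPKM without it. In mCherry cells against Control 4 were higher and 2 lower under caMEK1, and 5 and 2 under caMKK6. Of 10 glucocorticoid-responsive genes, 4 and 7 were higher and none lower in caMEK1 and caMKK6 GFP cells, and 3 and 8 in mCherry cells, so that the caMEK1 counts lie near those shares. Fkbp5, a chaperone induced by glucocorticoids, averaged 46.3 ± 10.98 FPKM in caMEK1 mCherry cells and 1.20 ± 0.14 FPKM in Control mCherry cells. Among metal genes, Mt4 and Mt3 were called higher in caMEK1 mCherry cells, where Mt4 averaged 70.7 ± 80.9 FPKM and was listed at 0 in Control. The importers Slc39a8 and Slc39a9 were lower in mCherry cells of both kinases, and so was Ccs, the copper chaperone for superoxide dismutase, with 14.2 ± 2.37 FPKM in caMEK1 and 16.8 ± 3.54 FPKM in caMKK6 cells against 39.2 ± 4.19 FPKM in Control. Slc11a2 was lower in both as well. The sum of 5 neutrophil markers lay between 9.68 and 50.8 FPKM in caMEK1 GFP livers on doxycycline and between 0 and 0.12 FPKM in untreated ones, and that of 8 macrophage markers between 53.5 and 559 and between 30.8 and 56.3 FPKM. The neutrophil sum was also higher in Control GFP livers, with 3.07 to 4.36 FPKM on doxycycline, against 0.08 to 0.53 FPKM without it. In caMEK1 mCherry cells it was 3.87 to 23.7 FPKM, against 1.07 to 1.62 FPKM in Control mCherry cells. On doxycycline 4 of its 5 markers were under 1 FPKM in every Control GFP library, 2 in caMEK1 mCherry cells and 1 in caMEK1 GFP cells. The sum of 5 erythroid markers was 0.33 to 5.18 FPKM in all kinase livers on doxycycline, against 34.7 to 71.1 FPKM in untreated kinase livers and 33.2 to 38.4 FPKM in Control mCherry cells. In the untreated kinase and Control mCherry groups 4 of the 5 were under 1 FPKM in every library, so that sum came almost wholly from 1 marker. The part of these marker sums in these results was not tested.

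In colon Slc30a10 was nearly lost under caMEK1 and lower, but still present, under caMKK6, in mCherry and GFP cells. It had 0.17 and 0 FPKM, from 9 and 0 reads, in caMEK1 mCherry cells and 2.15, 1.14 and 0.73 FPKM in caMKK6 mCherry cells, against 9.65 and 10.8 FPKM in Control mCherry cells. In GFP cells it had 0.21 and 0.35 FPKM in caMEK1 mice on doxycycline, against 10.1, 10.4 and 13.9 FPKM without it. In caMKK6 GFP cells it had 2.40, 1.05 and 0.99 FPKM on doxycycline, against 18.0, 17.01 and 20.6 FPKM without it. None of these groups overlapped its comparison group. Control GFP cells had 8.05 and 7.33 FPKM on doxycycline and 4.58, 4.88 and 9.37 FPKM without it, which overlapped. On the log2 scale the changes of mCherry cells against Control were -3.38 ± 0.30 under caMEK1 and -2.31 ± 0.28 under caMKK6 (SE, limma adjusted p = 4.4e-07 and 3.2e-05). In GFP cells the changes against no doxycycline were -3.27 ± 0.28 and -3.02 ± 0.25 (SE, limma adjusted p = 2.7e-06 and 3.3e-06). It was the sole member called in GFP cells, in comparisons where 1.33% and 2.6% of all genes were called. Those 154 and 300 genes became as few as 49 without treated caMEK1 GFP replicate 1 and 31 without untreated caMKK6 replicate 3. The ratio of GFP means, of cells without doxycycline over cells on it, was 41.03 under caMEK1 and 12.5 under caMKK6, a size that the added 1 FPKM compresses on the log2 scale. These ratios depend on untreated cells that differed by genotype, with both kinase genotypes above every untreated Control library. On doxycycline the GFP means were 0.28 FPKM in caMEK1, 1.48 FPKM in caMKK6 and 7.69 FPKM in Control mice. The 4 calls of Slc30a10 above were kept under each alternative run for them.

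**Figure D3:**
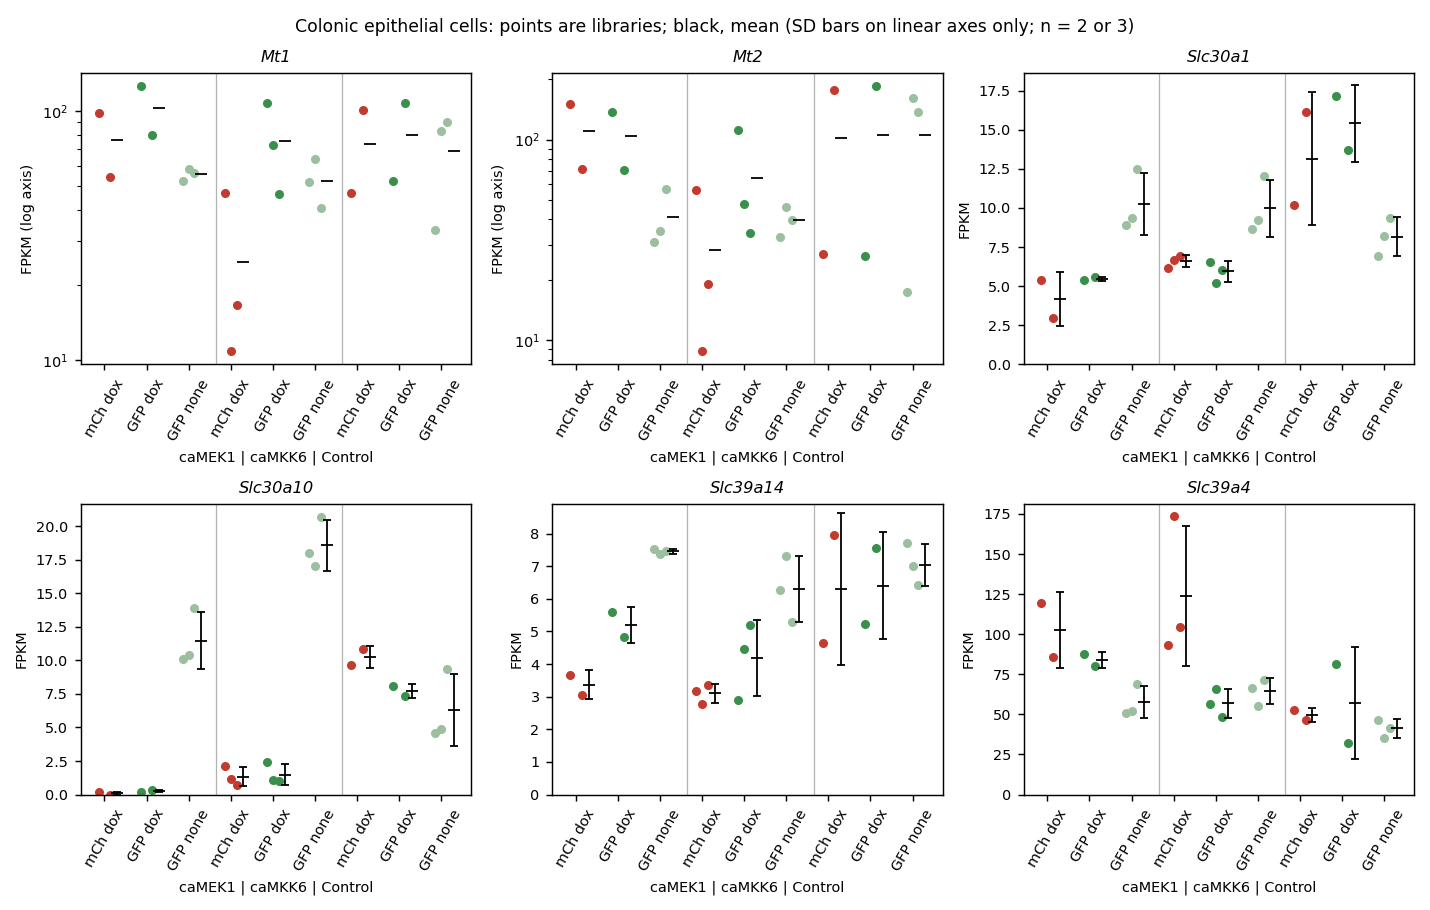
The 6 genes in colonic epithelial cells, in FPKM, for caMEK1, caMKK6 and Control mice; the axes of Mt1 and Mt2 are logarithmic and the others linear from 0. Points are libraries of mCherry and GFP cells on doxycycline and GFP cells without it, with the mean in black and SD bars on linear axes; Slc30a10 lies at or below 2.40 FPKM in all caMEK1 and caMKK6 libraries on doxycycline and at 4.58 FPKM or above in all others.

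In colon no rise of the metallothioneins over Control or untreated cells was called. Mt1 had 46.8, 10.9 and 16.7 FPKM in caMKK6 mCherry cells, against 107, 72.8 and 46.5 FPKM in GFP cells of the same mice and 46.7 and 100 FPKM in Control mCherry cells. Mt1 was lower, with log2 differences of -1.69 ± 0.53 from Control and -1.75 ± 0.47 from GFP cells (SE, limma adjusted p = 0.03 and 0.014). Both calls rested on single libraries: without caMKK6 mCherry replicate 2 or 3 the values were -1.26 and -1.54 against Control and -1.32 and -1.60 against GFP cells, with adjusted p between 0.063 and 0.12. They were also lost without Control replicate 2 (-1.15, adjusted p = 0.26) and without GFP replicate 1 (-1.46, adjusted p = 0.056). Against untreated GFP cells the caMKK6 change of Mt1 was -1.28 (adjusted p = 0.056). Mt2 had 56.3, 8.84 and 19.0 FPKM in caMKK6 mCherry cells, against 111, 47.6 and 34.3 FPKM in GFP cells. It was lower in mCherry cells in 3 of 3 animals, and the log2 difference of -1.36 was not called (adjusted p = 0.26) but was with the animal as a block (adjusted p = 0.0037). In caMEK1 mCherry cells Mt1 had 98.2 and 54.4 FPKM and Mt2 150 and 71.3 FPKM, overlapping Control, and neither was called (adjusted p = 0.93 and 0.74). In caMEK1 GFP cells Mt1 had 125 and 80.25 FPKM on doxycycline, against 52.3, 58.6 and 56.1 FPKM without it. Mt2 had 138 and 70.7 FPKM there, against 31.0, 35.1 and 57.0 FPKM. These groups were apart, yet neither gene was called. In caMKK6 GFP cells the groups overlapped for both genes. Between the kinases, caMEK1 over caMKK6 mCherry cells, Mt1 differed by 1.78 ± 0.53 and Slc30a10 by -1.07 ± 0.28 (SE, limma adjusted p = 0.023 and 0.011), with 20.7% of genes called. Slc30a1 was not called there (-0.59, adjusted p = 0.066), but was without caMEK1 replicate 1 (-0.94, adjusted p = 0.02). The Mt1 difference was lost without either caMEK1 library or without caMKK6 replicate 2 or 3 (1.35 to 2.20, adjusted p between 0.052 and 0.2), and that of Slc30a10 without caMEK1 replicate 2 (-0.96, adjusted p = 0.11). Control colons showed how far animals differ: Mt2 had 26.9 and 177 FPKM in mCherry cells and 26.3 and 184 FPKM in GFP cells of the same 2 mice. The colours of an animal were close and the 2 animals far apart. The GFP cells of untreated Control mice had 17.4, 161 and 137 FPKM, with 1 animal far below the other 2.

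Slc30a1 was lower in mCherry cells of both kinases. It had 5.42 and 2.96 FPKM in caMEK1 and 6.17, 6.65 and 6.94 FPKM in caMKK6 mCherry cells, against 10.2 and 16.2 FPKM in Control mCherry cells. The groups did not overlap, and it fell by 1.46 ± 0.24 and by 0.87 ± 0.22 on the log2 scale (SE, limma adjusted p = 0.00032 and 0.0099). Without Control replicate 2 the caMKK6 change was -0.56 with adjusted p = 0.17, and against untreated GFP cells it was -0.52 with adjusted p = 0.06. In GFP cells Slc30a1 had 5.37 and 5.57 FPKM in caMEK1 mice on doxycycline, against 8.91, 9.34 and 12.5 FPKM without it. In caMKK6 GFP cells it had 6.57, 5.21 and 6.06 FPKM on doxycycline, against 8.66, 9.22 and 12.0 FPKM without it. Neither passed (-0.78 and -0.65, limma adjusted p = 0.09 and 0.079), although the groups were apart. Against Control GFP cells on doxycycline they did (-1.33 and -1.24, adjusted p = 0.0066 for each). Those Control cells had 17.1 and 13.7 FPKM on doxycycline, against 6.90, 8.22 and 9.37 FPKM without it, a change of 0.84 that was not called (adjusted p = 0.26). Without Control GFP replicate 2 on doxycycline it was 0.99 with limma adjusted p = 0.03, and that of Slc39a4 0.98 with adjusted p = 0.043, where 1447 genes were called.

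Slc39a14 had 3.67 and 3.06 FPKM in caMEK1 and 3.18, 2.77 and 3.36 FPKM in caMKK6 mCherry cells, against 4.66 and 7.94 FPKM in Control mCherry cells. It fell by 0.71 ± 0.23 and by 0.80 ± 0.21 on the log2 scale (SE, limma adjusted p = 0.034 and 0.012). The rise called in liver was in GFP cells against untreated ones, another comparison, and liver mCherry cells against Control gave no call. Control replicate 2 decided both falls in colon: without it the changes were -0.38 and -0.47 with adjusted p = 0.37 and 0.21. The caMEK1 call was also lost with quantile scaling (-0.53, adjusted p = 0.054) and without either caMEK1 library (-0.81 and -0.61, adjusted p = 0.061 and 0.22). Slc39a4, the importer for dietary zinc, was higher. It had 120 and 85.7 FPKM in caMEK1 and 93.4, 174 and 104 FPKM in caMKK6 mCherry cells, against 52.7 and 46.6 FPKM in Control mCherry cells. It rose by 1.02 ± 0.34 and by 1.25 ± 0.31 (SE, limma adjusted p = 0.037 and 0.0079). The caMEK1 call was lost without any 1 of its 4 libraries (0.78 to 1.25, adjusted p between 0.076 and 0.21), and the caMKK6 call without Control replicate 2 (1.16, adjusted p = 0.057). The caMEK1 value against untreated GFP cells was 0.82 (adjusted p = 0.052). In caMKK6 mice Slc39a4 was also higher in mCherry than in GFP cells, which had 56.3, 65.8 and 48.3 FPKM, in 3 of 3 animals. That difference was 1.07 ± 0.27 (SE, limma adjusted p = 0.01), and 0.80 with adjusted p = 0.067 without mCherry replicate 2. In caMEK1 mice the colours overlapped, with GFP cells at 87.4 and 80.4 FPKM, and did not pass (0.27, adjusted p = 0.65).

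Over the 6 genes, 1 was higher and 3 lower in caMEK1 mCherry colon cells with 21.5% of all genes called, and 1 higher and 4 lower in caMKK6 ones with 20.8% called. Between the colours 0 were called under caMEK1 by limma, with 13.4% of genes called, and 2 under caMKK6, with 21.3%. The 13.4% is 1550 genes, which became 354 without caMEK1 mCherry replicate 2 and 454 without GFP replicate 1, and the 21.3% is 2463 genes, which became 1349 without caMKK6 mCherry replicate 3. For caMEK1, Slc39a14 alone reached an unadjusted p under 0.05, at 0.04. The excess of the kinase gap over the Control gap was called for none (3.21% and 3.11% of genes called, lowest adjusted p 0.48 under caMEK1 and 0.18 under caMKK6). Their unadjusted p was under 0.05 for Mt1 and Slc39a4 under caMKK6, at 0.044 and 0.018, and with the animal as a block Mt1 was called (-1.62, adjusted p = 0.035). Without Control GFP replicate 2 the excess of Slc39a4 was 1.78 with adjusted p = 0.016. In Control colons doxycycline gave 0 calls over all genes (0%) by limma and 0 by voom on recovered reads, with 1392 of 11542 genes at an unadjusted p under 0.05, and Slc30a1 the sole such member. Control mCherry and GFP cells differed in 0.0866% of genes and in no member, and GFP cells of the 2 kinases in 0.078% and in no member. Slc30a10 had an unadjusted p of 0.004 in that last comparison, the sole one under 0.05 among the members.

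**Figure D4:**
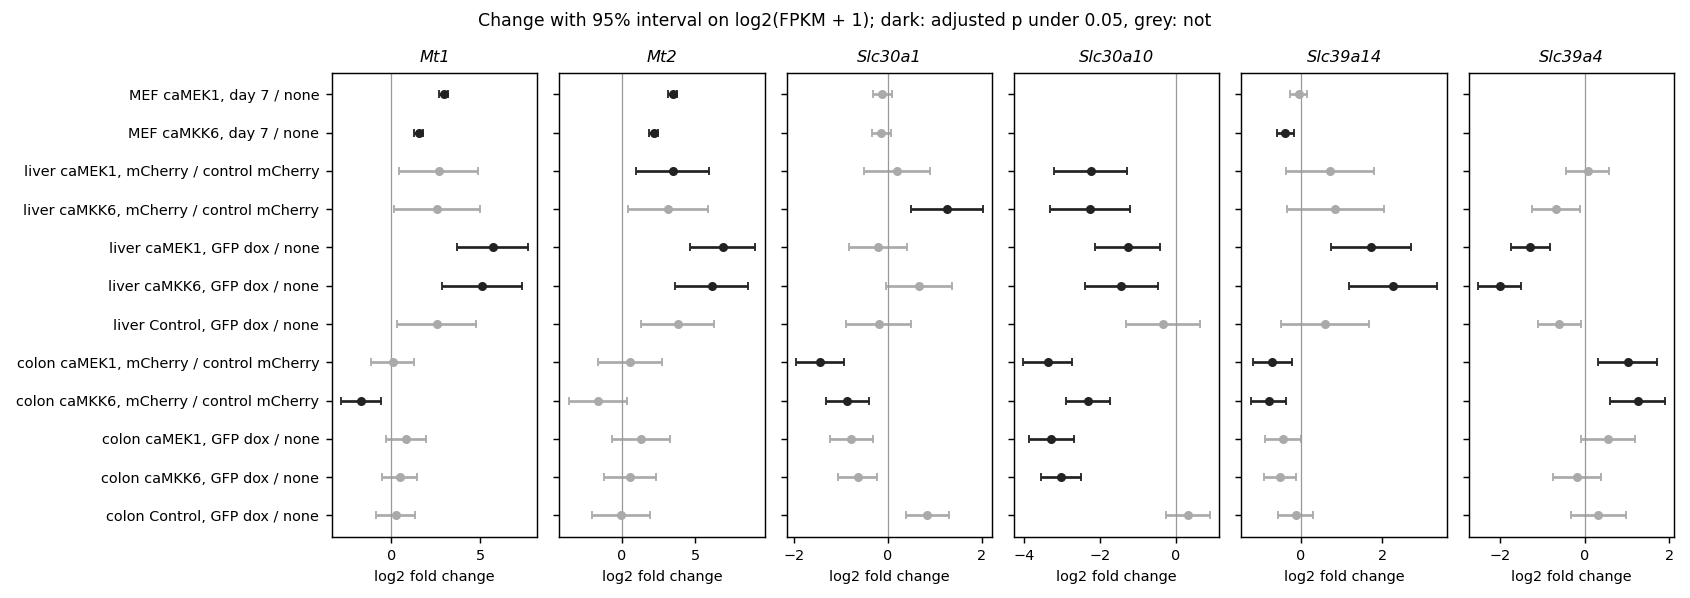
Log2 changes of the 6 genes on the log2(FPKM + 1) scale with 95% intervals, in MEFs at day 7 and in liver and colon; dark points passed an adjusted p of 0.05 and grey ones did not. Slc30a10 lies left of 0 under both kinases in liver and colon. Mt1 and Mt2 lie right of 0 in liver, in grey also for Control GFP cells on doxycycline. Of their liver mCherry points only Mt2 under caMEK1 is dark. Genes not tested in MEFs have no point.

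The list counts in colon stand against 21.5% and 20.8% of all genes called in caMEK1 and caMKK6 mCherry cells, and 1.33% and 2.6% in GFP cells. Among other metal genes of colon, Slc39a5, a zinc importer of the basolateral membrane, was lower in mCherry cells, with 8.39 ± 1.70 FPKM in caMEK1 (n = 2) and 18.1 ± 2.18 FPKM in caMKK6 cells (n = 3) against 35.1 ± 0.60 FPKM in Control (n = 2, SD). Of 10 other zinc importers tested, 0 were higher and 2 lower under caMEK1, and 2 and 2 under caMKK6. Of 4 genes of manganese and divalent metal transport, 1 was higher and 2 lower under caMEK1 and 0 and 2 under caMKK6. Slc40a1 was lower in both, with 2.24 ± 1.10 and 7.36 ± 4.32 FPKM against 16.7 ± 4.06 FPKM in Control. Slc31a1, the copper importer, averaged 13.9 ± 5.01 FPKM in caMEK1 mCherry cells and 47.1 ± 6.43 FPKM in Control ones, among 10 copper genes of which 0 were higher and 3 lower under caMEK1 and 2 and 0 under caMKK6. Of 13 NRF2 targets 5 were higher and 0 lower under caMEK1, and 11 and 0 under caMKK6. In GFP cells against no doxycycline none of the zinc, copper, manganese and metal sensing lists had a call, while 2 of the 13 NRF2 targets were higher under each kinase. Socs3, a feedback inhibitor of cytokine signalling, was called higher in GFP cells under both kinases. It averaged 16.6 ± 1.26 FPKM on doxycycline and 2.50 ± 0.99 FPKM without it in caMEK1 mice. The sum of 5 neutrophil markers was 590 to 1012 FPKM in caMEK1 and 28.0 to 46.7 FPKM in caMKK6 mCherry colon cells and 1.80 to 8.03 FPKM in Control ones. In GFP cells it was 38.2 to 102 FPKM in caMEK1 mice on doxycycline, against 2.00 to 5.16 FPKM without it, and 7.35 to 29.2 FPKM in caMKK6 mice on doxycycline, against 2.76 to 13.9 FPKM without it. In caMKK6 mCherry and caMEK1 GFP cells on doxycycline 4 of the 5 markers were under 1 FPKM in every library. In caMEK1 mCherry and caMKK6 GFP cells on doxycycline 2 of the 5 were. The part of that sum in these results was not tested.

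Liver and colon were set against each other in 1 fit of both tissues. The caMKK6 change of mCherry cells against Control was higher in liver by 4.26 ± 1.29 for Mt1, 4.79 ± 1.67 for Mt2, 2.12 ± 0.43 for Slc30a1 and 1.64 ± 0.60 for Slc39a14, and lower by 1.93 for Slc39a4, a difference of -1.93 ± 0.42 (SE, limma adjusted p = 0.015, 0.035, 0.00056, 0.043 and 0.0012, with 23.6% of genes called). Under caMEK1 only Slc30a1 passed among the 6, at 1.65 ± 0.43 (limma adjusted p = 0.0052, 19.6% of genes called). Without liver caMKK6 mCherry replicate 1 the differences were 2.75, 3.33 and 0.52 for Mt1, Mt2 and Slc39a14, none called (adjusted p = 0.17, 0.22 and 0.54). Without colon Control mCherry replicate 2 those of the same 3 were 3.72, 3.45 and 1.31, none called (adjusted p = 0.066, 0.18 and 0.16). Leaving out any 1 liver Control or colon caMKK6 mCherry library left adjusted p between 0.053 and 0.15 for Slc39a14, and leaving out either liver Control library or colon caMKK6 replicate 2 or 3 left it between 0.054 and 0.093 for Mt2. The caMEK1 value of Slc30a1 was 1.34 or 1.30 without colon Control or caMEK1 replicate 2 (adjusted p = 0.051 and 0.064). In GFP cells the same difference of changes, added after the data were seen, was 4.86 for Mt1 and 5.59 for Mt2 under caMEK1, and 4.63 and 5.61 under caMKK6 (limma adjusted p between 0.0037 and 0.012, with 19.5% and 14.3% of genes called). Without liver caMKK6 GFP replicate 1 the caMKK6 values were 3.57 and 4.48, not called (adjusted p = 0.12 and 0.13), and without colon caMEK1 GFP replicate 2 that of Mt2 under caMEK1 was 5.11 (adjusted p = 0.052). In untreated GFP cells, 9 livers had 2.29 to 70.8 FPKM of Mt1, against 33.1 to 89.8 FPKM in 9 colons, and 21.2 to 29.0 FPKM of Slc39a4, against 35.4 to 71.6 FPKM. Slc39a14 lay at 13.6 to 27.5 FPKM in those livers, against 5.30 to 7.71 FPKM in those colons, and was higher by 1.36 ± 0.21 (SE, limma adjusted p = 2.9e-07, 89.6% of genes called). The median gene differed by -0.88 between the tissues, and with a common median the difference of Slc39a4 was 0.23 in place of -1.02. Those of Mt1 and Mt2, -1.94 and -2.19, were then -0.74 and -1.02 and not called (limma adjusted p = 0.14 and 0.11). Slc30a10 averaged 15.8 ± 3.10 FPKM in untreated livers and 12.1 ± 5.68 FPKM in untreated colons (SD, n = 9 each), a difference of 0.47 with limma adjusted p = 0.029. That call was lost without liver caMKK6 replicate 3 or colon Control replicate 1 or 2 (0.42 to 0.43, adjusted p between 0.056 and 0.062).

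Across the 26 groups the order of levels set tissues apart for some genes and not for others. Slc39a4 averaged 41.2 to 124 FPKM over colon groups, 5.89 to 26.8 FPKM over liver groups and at most 0.12 FPKM over MEF groups. Slc30a10 was highest in untreated Control liver at 19.1 ± 1.99 FPKM, close to untreated caMKK6 colon at 18.6 ± 1.88 FPKM (SD, n = 3 each). Mt1 and Mt2 were highest in caMKK6 GFP liver on doxycycline, at 982 ± 871 and 1826 ± 1687 FPKM (SD, n = 2), and lowest in untreated caMEK1 liver, at 15.4 ± 20.5 and 11.3 ± 16.0 FPKM (SD, n = 3). Of the 25 neighbouring pairs of groups in the order of each gene, most overlapped in range: 3 pairs were apart for Mt1, 2 for Mt2, 0 for Slc30a1, 4 for Slc30a10, 4 for Slc39a14 and 5 for Slc39a4. The ratio of Mt2 to Mt1 in FPKM, which depends on the exon lengths counted, ranged between 0.76 and 1.60 in MEF libraries. It ranged between 0.28 and 2.22 in liver and 0.50 and 1.93 in colon.

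Likeness was measured as Pearson's r over the 26 group means of log2(FPKM + 1) with each tissue's mean subtracted, a description over groups that share libraries' depth, animals and controls. Mt1 and Mt2 had r = 0.99 with each other, and Slc39a14 had r = 0.81 with Mt1 and 0.79 with Mt2. Slc39a4 ran the other way, with r = -0.74 to Slc39a14 and -0.61 to Mt1. Slc30a10 had r = -0.45 to Mt1 and 0.36 to Slc30a1. Among 10527 genes reaching 5 FPKM in some group, the 3 most like Mt1 were Inhbb, Lcn2 and Cdip1 (r = 0.89, 0.88 and 0.88), and for Mt2 they were Inhbb, Lcn2 and Fgl1 (r = 0.89, 0.89 and 0.88). For Slc39a14 they were Fgl1, Il1r1 and Acer2 (0.88 each), and for Slc30a10 Usf3, Sdr42e1 and Rtn4ip1 (0.91, 0.89 and 0.88). For Slc30a1 they were Zfp628, Map3k21 and Elf2 (0.86, 0.85 and 0.84), and for Slc39a4 Apoc3, Igsf5 and Abcc2 (0.87, 0.86 and 0.80).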

How the data were processed

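RNA of 70 libraries was measured by sequencing and deposited as 1 table of FPKM values, normalised by the authors to exon length and to library size. Per the submitters' processing notes, reads were trimmed with cutadapt 1.12 and aligned with STAR 2 to mm10. The counting tool and its annotation are not given in the sources used here. Against exon lengths of GENCODE release 21 all values checked were whole reads within 0.02 of a read, which gave the depths and reads printed. No interval was put on single values, and counts of reads cover counting error only.

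A gene was tested if 3 MEF libraries, or 2 libraries of liver or colon, reached 1 FPKM: 11347 in MEFs, 10371 in liver, 11542 in colon and 12690 in the fit of both tissues. limma 3.58.1 (R 4.3.3) was run on log2(FPKM + 1) with 1 fit per tissue over all its groups, an intensity trend and Benjamini-Hochberg adjustment over all genes tested; a call is an adjusted p under 0.05. The limma fit alone was tested on simulated log2 values. It was run for caMEK1 MEFs at day 7 and for caMEK1 mCherry cells against Control in liver and colon. Groups came from the sample titles. The 6 genes, the gene lists and the markers were chosen with earlier results of these data known. All 6 genes were examined in every comparison, but not every value was printed. From each list at most the 4 called genes with the largest change were named. Alternatives were a pseudocount of 0.1, no filter, common-median and quantile scaling, other comparison groups, blocks for animal or replicate number, leaving out each library in turn, and 3 added later: voom on the recovered reads, the block within MEF genotype, and leaving out 5 caMKK6 MEF libraries with over 5 FPKM of frog MEK1. mCherry and GFP libraries of an animal are paired by the labels (correlation of their deviations 0.40 to 0.82); same-numbered MEF libraries deviated together within a genotype (0.25 to 0.53) and not across genotypes. Slc30a10 is listed under a later version of its gene model than in GENCODE release 21, so its reads were read off its own smallest step.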

Additional observations from a re-analysis of the deposited data

Results flagged for a closer look

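Results are listed here because a test of a difference between groups passed, or because a signal stood in data outside the 6 genes. No group had 4 samples or more, so samples far from their group could not be looked for.

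In MEFs the change under caMEK1 exceeded that under caMKK6 at days 2, 4 and 7 by 1.09, 1.35 and 1.40 on the log2 scale for Mt1 and by 1.31, 1.36 and 1.31 for Mt2. Between tissues, liver minus colon, the mCherry change under caMEK1 differed for Slc30a1 by 1.65. Under caMKK6 it differed by 4.26 for Mt1, 4.79 for Mt2, 2.12 for Slc30a1, 1.64 for Slc39a14 and -1.93 for Slc39a4.

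The GFP change on doxycycline, a comparison added after the data were seen, differed between liver and colon under caMEK1 by 4.86 for Mt1, 5.59 for Mt2, 2.00 for Slc30a10, 2.17 for Slc39a14 and -1.83 for Slc39a4. Under caMKK6 it differed by 4.63 for Mt1, 5.61 for Mt2, 1.32 for Slc30a1, 1.58 for Slc30a10, 2.78 for Slc39a14 and -1.83 for Slc39a4. For Slc30a10, which fell in both tissues, a positive difference means a smaller fall in liver. Without liver caMKK6 GFP replicate 1 the caMKK6 value was 0.79 for Slc30a1 and -1.41 for Slc39a4, neither called by limma (adjusted p = 0.27 and 0.052). For Slc30a1 it was also lost without untreated liver replicate 2 or untreated colon replicate 3 (1.10 and 1.19, adjusted p = 0.07 and 0.057). For Slc30a10 without liver caMKK6 GFP replicate 2 it was 0.47 (adjusted p = 0.51), and 6 other single libraries, each left out, gave adjusted p between 0.061 and 0.088.

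The frog MEK1 transgene was present in 5 caMKK6 MEF libraries, at up to 16.5 FPKM, although that genotype is labelled caMKK6. mCherry was present at up to 749.6 FPKM in the GFP cells of Control livers on doxycycline. Without those 5 libraries the caMKK6 calls of Slc39a14 at days 2, 4 and 7, of Slc30a1 at day 4 and of Mt1 between untreated MEFs were lost, with 1 untreated caMKK6 library left. The part of mCherry in the Control GFP cells was not tested.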

How the results depend on the processing

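Of 80 results called by limma, 501 of 552 values under other settings and 542 of 630 values with 1 library left out stayed called in the same direction, 50 and 88 lost the call, and 1 changed sign: Slc39a4 between untreated liver and colon, 0.226 with a common median. Of 134 results not called, 26 of 856 values and 18 of 834 values became called. Sorted groups held 2 or 3 libraries, which limits every mouse comparison, and where 1 library was left of a group it was assumed to vary like the others. The cause of each change below was not tested.

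Counts of the 6 genes changed as follows. With a common median or quantile scaling, caMKK6 MEFs had 0 lower at day 2 (1 in the fit reported) and 1 at day 4 (2). Liver caMKK6 mCherry cells had 0 higher (1) and 2 lower (1), liver GFP cells of either kinase 1 lower (2), liver caMKK6 mCherry over GFP cells 0 higher (1, Slc39a4), caMEK1 over caMKK6 mCherry liver 0 lower (1) and GFP liver 1 higher (0). With quantile scaling alone, liver caMEK1 mCherry cells had 2 higher (1), colon ones 0 (1), and the caMEK1 mCherry difference between tissues 2 (1). With a common median alone, untreated liver against colon had 0 lower (3) and the caMKK6 difference between tissues 2 higher (4). Without the low-value filter, liver and colon caMEK1 mCherry cells had 0 higher (1 each), liver caMKK6 GFP cells 1 lower (2) and the caMKK6 difference between tissues 2 higher (4). With a pseudocount of 0.1 or voom the caMEK1 difference between tissues had 2 higher (1), and with voom liver caMKK6 mCherry cells had 2 higher (1).

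Against untreated GFP cells, liver mCherry cells had 3 higher under each kinase (1 each) and 2 lower under caMKK6 (1), colon caMEK1 cells 0 higher (1) and colon caMKK6 cells 2 lower (4). Against Control GFP cells on doxycycline, liver GFP cells had 0 higher under each kinase (3 each) and 1 lower under caMEK1 (2), and colon GFP cells 2 lower under each (1 each). Without the caMKK6 libraries holding frog MEK1, 0 were lower in caMKK6 MEFs at days 2, 4 and 7 (1, 2 and 1) and between untreated MEFs (1).

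With the animal as a replicate block, mCherry against GFP liver had 1 lower under each kinase (0 each), the caMEK1 liver gap over Control 1 higher and 1 lower (0 and 0), colon caMKK6 colours 2 lower (1) and its gap over Control 1 lower (0). The block changed no other count of the 6 genes in mice. In MEFs a block over replicate numbers, which do not pair across genotypes, changed no count of the 6 genes. The block within genotype moved the difference between kinases to 3 higher at each time (2), and the all-gene calls of that difference at days 2, 4 and 7 to 3836, 5163 and 5464 (2665, 3999 and 4287). Leaving out 1 library at a time, the count higher ranged from 0 to 4 in liver caMKK6 mCherry and GFP cells, 1 to 4 in the caMKK6 mCherry and 2 to 5 in the caMKK6 GFP difference between tissues. The count lower ranged from 1 to 4 in colon caMKK6 mCherry cells, 1 to 2 in caMKK6 MEFs at day 4 and in liver GFP cells of either kinase, and 0 to 2 in caMKK6 MEFs at day 2 and between the kinases in colon mCherry cells. GFP liver between kinases and Control GFP colon had 0 to 2 higher, and every other count that moved ranged from 0 to 1.

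Over all genes, leaving out the libraries with frog MEK1 gave 1484, 2388 and 2674 calls in caMKK6 MEFs at days 2, 4 and 7 (4443, 5088 and 4629), 1354 for the difference at day 2 (2665) and 279 between untreated MEFs (735). The animal block gave 1277 and 954 calls between the colours of caMEK1 and caMKK6 livers (488 and 444), 1446 and 1988 for their gaps over Control (556 and 1011), 2607 for caMEK1 colon colours (1550), and 931 and 849 for the colon gaps (371 and 359). A common median and quantile scaling gave 162 and 199 for caMKK6 liver colours, 138 and 148 for the caMEK1 and 72 and 56 for the caMKK6 liver gap, 1634 and 1742 between kinases in mCherry liver (3292), and 204 and 242 in GFP liver (373). Quantile scaling gave 2462 in caMEK1 GFP liver (3989) and 1602 for its difference from colon (2476). Against Control GFP cells, GFP colon had 427 and 809 calls (154 and 300). voom gave 100 and 152 there, 320 and 148 for the caMEK1 gaps of liver and colon, and 1434 for the caMEK1 mCherry difference between tissues (2485). With 1 library left out, all-gene calls were as low as 1412 in caMEK1 (2806) and 1662 in caMKK6 mCherry liver against Control (3958), and 808 and 1172 in colon (2484 and 2395). They ranged over 193 to 809 and 261 to 1478 between the liver colours under caMEK1 and caMKK6, and 70 to 1067 and 61 to 647 for the colon gaps. Comparisons with at most 11 calls stayed at or below 50 under the settings that kept all libraries. Control GFP colon on doxycycline against none exceeded 50 in a fit that left 1 treated library.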
